A study of Homo sapiens with 19 samples.

Results

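Gene expression 24 h after nanostraw electroporation (NEE) was compared with that 2 h after it in A549, a cell line derived from a human adenocarcinoma of the lung. NEE opens cells with hollow nanoscale tubes and brief electric pulses so that RNA can be drawn from living cells. The comparison used 8 of the 19 libraries of the series, chosen by their labelled time: 4 lysates taken at 24 h against 4 taken at 2 h. At each time 2 libraries came from monolayers, cells grown flat, and 2 from spheroids, cells grown as small balls. The labels call the 2 libraries of a group biological replicates. All 8 cultures had been through NEE, and no library taken before NEE entered the comparison. The labels name no culture handled alike without NEE, so the time since NEE and the time in culture or in fresh medium cannot be told apart. Of 62700 genes in the files, 14402 had at least 1 CPM (counts scaled to library size) in at least 2 of the 8 libraries and were tested.

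Cells answer many disturbances of their surface with immediate early genes, whose transcription needs no new protein. Several of them encode subunits of the transcription factor AP-1 (the FOS, JUN, ATF and MAF proteins), nuclear receptors of the NR4A family and Krüppel-like factors. Their transcripts are usually short-lived, and phosphatases that switch off MAP kinases are among the early products. The aryl hydrocarbon receptor is a ligand-activated factor that switches on TIPARP, CYP1A1 and CYP1B1. TIPARP encodes an ADP-ribosyltransferase that acts back on the receptor. YAP and TAZ are coactivators that respond to cell shape and adhesion, with CCN1 and CCN2 among their best known targets.

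The promoters of 5 genes that fell between 2 h and 24 h are shown because these genes moved together and the shown windows differ in part in their motifs. Each run is the RefSeq window on GRCh38.p14 from 250 bases before to 50 bases after a transcription start, written 5′ to 3′ along the gene. Capitals mark every match, on either strand, to GCGTG (the core bound by the aryl hydrocarbon receptor), TGACGTCA (the cAMP response element), TGACG (its shorter form, which TGACGTCA also holds) or TGANTCA (the AP-1 site).

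TIPARP (chr3:156674340-156674639, plus strand): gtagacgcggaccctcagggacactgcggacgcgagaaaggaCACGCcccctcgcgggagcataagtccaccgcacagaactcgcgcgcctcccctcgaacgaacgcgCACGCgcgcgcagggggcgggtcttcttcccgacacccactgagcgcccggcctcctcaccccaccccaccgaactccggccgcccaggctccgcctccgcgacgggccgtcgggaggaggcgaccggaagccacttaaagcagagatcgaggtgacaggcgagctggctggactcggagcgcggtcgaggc
PPP1R15A (chr19:48872171-48872470, plus strand): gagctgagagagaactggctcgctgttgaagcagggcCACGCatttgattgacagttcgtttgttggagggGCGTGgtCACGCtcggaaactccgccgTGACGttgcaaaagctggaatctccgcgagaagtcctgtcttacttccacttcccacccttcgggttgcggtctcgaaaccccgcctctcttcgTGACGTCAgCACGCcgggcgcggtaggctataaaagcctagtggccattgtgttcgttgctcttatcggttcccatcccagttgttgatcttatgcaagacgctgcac
FOSB (chr19:45467746-45468045, plus strand): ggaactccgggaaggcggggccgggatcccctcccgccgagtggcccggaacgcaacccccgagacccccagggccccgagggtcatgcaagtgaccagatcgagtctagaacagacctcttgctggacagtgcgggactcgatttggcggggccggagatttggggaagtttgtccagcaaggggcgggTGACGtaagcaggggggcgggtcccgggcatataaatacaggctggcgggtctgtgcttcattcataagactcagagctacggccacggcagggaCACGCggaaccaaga
PTGS2 (chr1:186680374-186680673, minus strand): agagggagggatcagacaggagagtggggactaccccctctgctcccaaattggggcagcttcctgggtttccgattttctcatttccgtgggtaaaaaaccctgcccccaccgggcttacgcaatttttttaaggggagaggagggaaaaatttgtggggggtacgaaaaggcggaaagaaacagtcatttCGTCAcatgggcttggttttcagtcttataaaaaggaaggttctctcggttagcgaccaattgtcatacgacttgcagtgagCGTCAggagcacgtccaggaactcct
TMEM156 (chr4:39032360-39032659, minus strand): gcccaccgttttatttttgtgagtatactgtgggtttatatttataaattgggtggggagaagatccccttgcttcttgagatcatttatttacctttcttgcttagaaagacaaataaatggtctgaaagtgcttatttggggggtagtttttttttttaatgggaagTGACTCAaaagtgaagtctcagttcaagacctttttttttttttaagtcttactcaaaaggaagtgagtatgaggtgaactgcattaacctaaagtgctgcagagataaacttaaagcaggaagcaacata

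All 9 genes called below had such a window, 13 windows in all. GCGTG was in 8 of the 13 windows, from 7 genes, and in 36.5% of all 35116 windows of the same length. TGACG was in 7 of the 13 windows, from 6 genes, and in 24.6% of all windows. TGACGTCA was found only for PPP1R15A among the 9 (1.85% of all windows) and TGANTCA only for TMEM156 (7.71%). The CArG box, the site of serum response factor, was in none of the 13 windows and in 1.29% of all. Among the shown windows, GCGTG was in those of TIPARP, PPP1R15A and FOSB, and TGACG in those of PPP1R15A, FOSB and PTGS2. TIPARP had 3 windows, of which window 1 is shown. Its windows 2 and 3 each held 0 matches to GCGTG and 1 to TGACG. A match describes the letters of a window and shows no binding.

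The 8 libraries held 16031034 to 22009279 counts over genes, so 3 counts correspond to 0.136 to 0.187 CPM. These reads come from PCR without molecular identifiers, so this floor covers counting error only. The keratins KRT8 and KRT18 and the reductase AKR1B10, all abundant in A549, each stood at 3620 CPM or more in every library. CDKN2A, which A549 is known to have lost, had 0 counts in all 8, though some usually abundant genes were also near 0 (JUND among them). EPCAM was low throughout, at 2.07 to 7.09 CPM. Summed leukocyte markers (7 of 11 tested) reached 22.5 to 91.2 CPM at 2 h and 31.3 to 68.9 CPM at 24 h, with CD14 alone at up to 76.9 CPM. Summed fibroblast markers (3 of 8 tested) reached 10.3 to 21.6 CPM at 2 h and 7.69 to 18.1 CPM at 24 h. No member of these lists was called. In lysates of many cells, fewer cells with a transcript and less of it per cell cannot be told apart.

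Between 2 h and 24 h, 9 genes fell and none rose. The genes that fell were TIPARP, TMEM156, PPP1R15A, FOSB, PTGS2, EREG, NFE2L2, NR4A1 and KLF6, by 2.15-fold to 56.1-fold. They are 0.0625% of the 14402 genes (edgeR quasi-likelihood test with culture as a block, Benjamini-Hochberg adjusted p under 0.05), and the share called higher was 0%. At an unadjusted p under 0.05 there were 826 genes, 524 lower and 302 higher at 24 h. The median log2 fold change over all genes tested was 0.01, and 48.6% of them were negative. In CPM, 550 genes (3.82%) were lower at 24 h with no overlap between the times within either culture, and 445 (3.09%) were higher. Below, "no overlap" is used in that sense, and error terms on fold changes are standard errors.

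TIPARP had the smallest p of all genes. Its level in monolayers was 382 and 341 CPM at 2 h and 88.3 and 95.7 CPM at 24 h. In spheroids it was 462 and 394 CPM at 2 h and 79.0 and 95.1 CPM at 24 h. Every 2 h library lay above every 24 h library, in both cultures. TIPARP (chr3:156673235-156706770 on GRCh38, plus strand) fell by 2.14 on the log2 scale (SE 0.14, 4.39-fold, edgeR adjusted p = 0.000364). It overlaps TIPARP-AS1 on the opposite strand, whose reads cannot be separated without the strand setting.

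CYP1B1, which encodes a cytochrome P450 that oxidises polycyclic hydrocarbons and oestrogens, pointed the same way with a wider spread. Its level was 379 and 352 CPM at 2 h and 126 and 230.4 CPM at 24 h in monolayers, and 752 and 624 CPM at 2 h and 130.4 and 243 CPM at 24 h in spheroids. No 24 h library reached a 2 h library, but replicate 2 stood well above replicate 1 at 24 h in both cultures. The log2 fold change of CYP1B1 was −1.46 ± 0.27 and did not pass (edgeR adjusted p = 0.175). With the replicate number as a block it did pass, narrowly (edgeR adjusted p = 0.05, fold change −1.52). DESeq2 with culture as a block also called CYP1B1 (−1.45, DESeq2 adjusted p = 0.000106). RMDN2-AS1 overlaps CYP1B1 on the same strand, and RMDN2 and CYP1B1-AS1 overlap it on the opposite strand.

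CYP1A1, the classical inducible target, stood at 27.5 and 39.3 CPM at 2 h and 8.82 and 25.1 CPM at 24 h in monolayers. The spheroid libraries had 60.004 and 49.1 CPM at 2 h and 1.73 and 15.02 CPM at 24 h. It did not overlap either, yet its fold change of −1.84 ± 0.66 did not pass (edgeR adjusted p = 0.735). Replicate 2 was again the higher of the pair at 24 h in both cultures.

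NFE2L2, which encodes NRF2, the activator of antioxidant and detoxification genes, was the other called gene of this list. Its level in monolayers was 223 and 177 CPM at 2 h and 105 and 80.7 CPM at 24 h. In spheroids it was 348 and 299 CPM at 2 h and 147 and 149 CPM at 24 h. The times were apart in each culture, and spheroids were the higher culture at each time. NFE2L2 (chr2:177227595-177392697, minus strand) fell 2.17-fold (log2 −1.11 ± 0.14, edgeR adjusted p = 0.0229). AGPS and other annotated genes overlap it on the opposite strand, and further ones, DNAJC19P5 among them, on the same strand.

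Of the 10 listed targets of the aryl hydrocarbon receptor 7 were tested. Of these 2 fell (TIPARP and NFE2L2), against 0.0625% of all genes, and none rose. Among the 7, 4 did not overlap and were lower at 24 h, against 3.82% of all genes. The median fold change of the 7 was −1.11. The 3 positive members were the aldehyde dehydrogenase ALDH3A1 (0.42), UGT1A6 (0.07) and IL1B (0.88), none of which passed. UGT1A6 shares exons with the other UGT1A genes, so its counts are uncertain. The receptor and its partners and chaperones gave a median of 0.03 over 7 genes with none called. AHR itself was low, at 8.49 to 27.5 CPM at 2 h and 6.48 to 16.3 CPM at 24 h. Among 19 tested targets of NRF2 the median was −0.06 with none called.

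**Figure D1:**
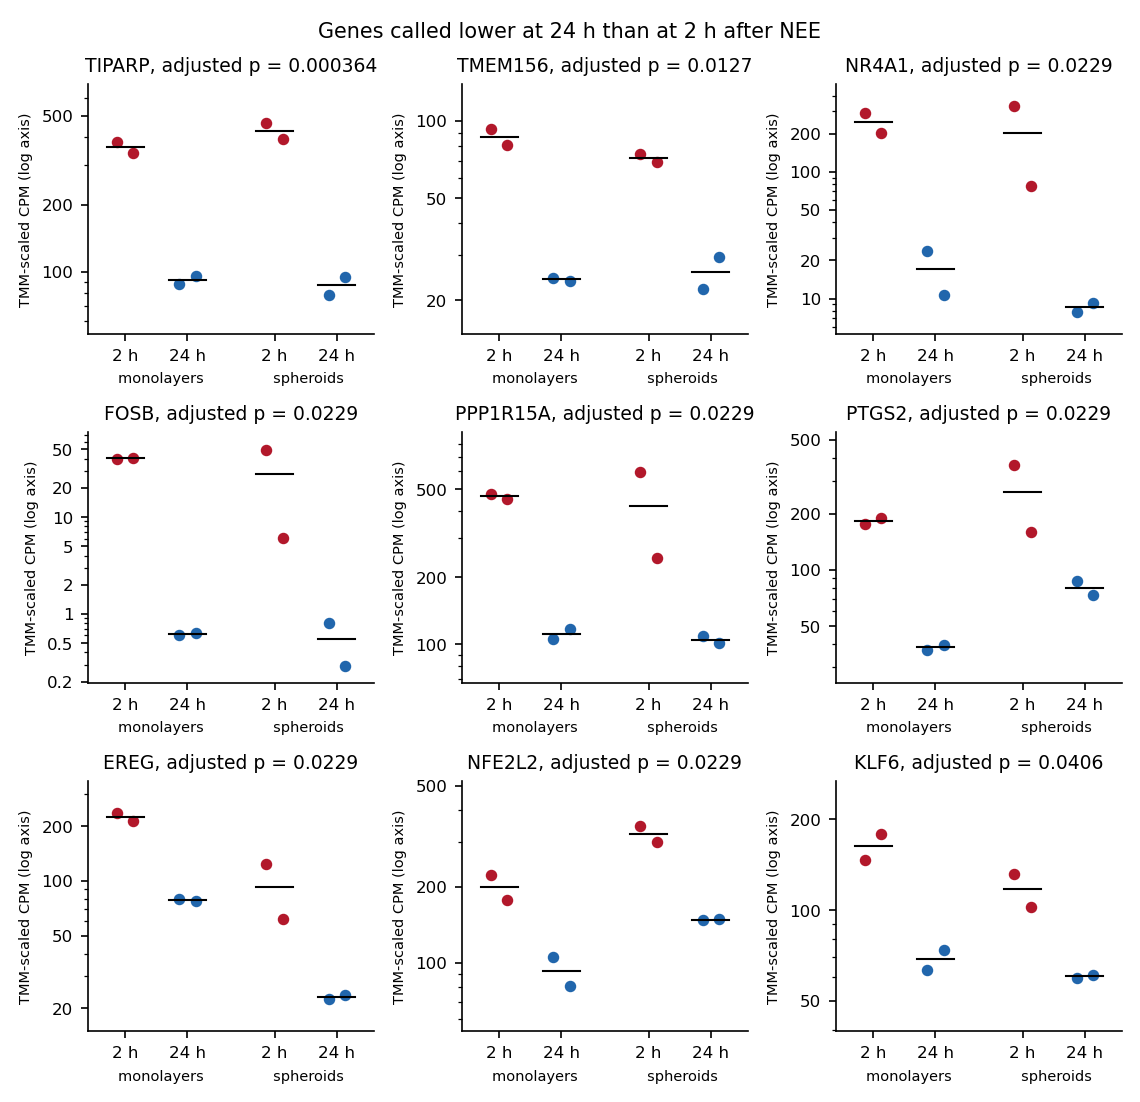
TMM-scaled CPM (log axis) of the 9 genes that fell, at 2 h (red) and 24 h (blue) in monolayers and spheroids. Each point is 1 library (replicate 1 left, replicate 2 right), each line the mean of 2, and no 24 h point reaches a 2 h point of the same culture.

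AP-1 genes had the lowest median of the 32 gene lists with tested members, with −2.27 over 10 tested members, all of them negative over both cultures. All 10 were negative in monolayers (median −2.04) and 9 of the 10 in spheroids (median −2.19). FOSB was the 1 called member, against 0.0625% of all genes called lower, and the gene with the largest drop of the 9. It stood at 39.4 and 41.0 CPM at 2 h in monolayers and at 0.608 and 0.637 CPM at 24 h. Spheroids had levels of 49.7 and 6.03 CPM at 2 h and 0.815 and 0.293 CPM at 24 h. All 4 levels at 24 h were under 1 CPM yet above the floor of 3 counts, and replicate 2 of the 2 h spheroids was far below replicate 1. FOSB (chr19:45467995-45475179, plus strand) fell 56.1-fold (log2 −5.81 ± 0.67, edgeR adjusted p = 0.0229). ERCC1 overlaps it on the opposite strand.

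FOSL1, which encodes the FOS-related subunit FRA1, stood at 213 and 126 CPM at 2 h and 56.9 and 43.3 CPM at 24 h in monolayers. In spheroids it stood at 153 and 51.6 CPM at 2 h and 20.4 and 16.5 CPM at 24 h. Within a culture the times did not overlap, but the lower 2 h spheroid library lay below the higher 24 h monolayer library. The fold change of −2.11 ± 0.35 did not pass (edgeR adjusted p = 0.113). It passed with the replicate block (−2.01, edgeR adjusted p = 0.00452) and with DESeq2 (−2.10, DESeq2 adjusted p = 1.89e-07). FOSL1 lies at chr11:65892049-65900573 on the minus strand.

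ATF3, a stress-induced repressor and AP-1 partner, stood at 49.1 and 82.99 CPM at 2 h and 4.91 and 2.60 CPM at 24 h in monolayers. Spheroids had levels of 77.6 and 9.91 CPM at 2 h and 1.58 and 1.52 CPM at 24 h. Its fold change of −4.45 ± 0.62 lay just outside the threshold (edgeR adjusted p = 0.0504), and inside it with the replicate block (adjusted p = 0.00545). FOS had −2.73 ± 0.56 (edgeR adjusted p = 0.262), MAFF −3.04 ± 0.64 (0.264) and JUN −2.44 ± 0.67 (0.527). JUN overlapped in spheroids, where replicate 2 at 2 h (21.7 CPM) lay below replicate 1 at 24 h (22.2 CPM).

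In all, 7 of the 10 AP-1 members did not overlap and were lower at 24 h, against 3.82% of all genes. The other 3 were JUN, MAFK and JUNB. JUNB (−0.49) had the smallest change, and its spheroid level at 24 h was 41.9 CPM in replicate 1 and 2.23 CPM in replicate 2. With the replicate block 5 of the 10 were called lower (FOSB, MAFF, FOSL1, ATF3 and JUN), against 0.187% of all genes in that fit. The list also names BATF, BATF3 and JUND, which did not reach 1 CPM in 2 libraries. JUND, usually abundant, was at 0.10 to 0.679 CPM. ASNS of the ATF4 list, NUSAP1 of the mitosis list and CHMP4B of the membrane repair list were likewise under 1 CPM in all 8 libraries. A count near 0 in these files may therefore not show a gene's level.

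In the 2 h spheroids 9 of the 10 members were lower in replicate 2 than in replicate 1, with a median difference of −1.48 in log2(CPM + 1). Over all genes tested that share was 49.6%. The list's fitted median stayed between −2.52 (without that replicate 2) and −1.67 (without replicate 1 of the same group) as each library was left out.

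Of the 16 tested members of the list of other immediate early genes, 15 were negative, with a median of −1.07. Among the 16, 2 fell, against 0.0625% of all genes. Without replicate 1 of the 2 h spheroids the median was −0.68, and in that group 14 of the 16 were lower in replicate 2 (median difference −0.92 in log2(CPM + 1)). NR4A1, an orphan nuclear receptor, stood at 289 and 203 CPM at 2 h and 23.5 and 10.6 CPM at 24 h in monolayers. The spheroid libraries had 329 and 76.7 CPM at 2 h and 7.86 and 9.15 CPM at 24 h. Even the lowest 2 h library lay above the highest 24 h library. NR4A1 (chr12:52022832-52059507, plus strand) fell 18.5-fold (log2 −4.21 ± 0.49, edgeR adjusted p = 0.0229).

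KLF6, a zinc-finger transcription factor, showed a smaller and tighter drop. It stood at 147 and 179 CPM at 2 h and 63.5 and 73.7 CPM at 24 h in monolayers, and at 132 and 102 CPM against 59.5 and 60.9 CPM in spheroids. All 4 libraries of 24 h lay below all 4 of 2 h. KLF6 (chr10:3775996-3785281, minus strand) fell 2.15-fold (log2 −1.10 ± 0.15, edgeR adjusted p = 0.0406).

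Other members of that list did not pass. NR4A2 had −1.88 ± 0.47 (edgeR adjusted p = 0.384) and KLF10 −0.90 ± 0.30 (0.648). EGR1, usually a prominent early gene, was at 0 to 5.58 CPM at 2 h and 0 to 1.25 CPM at 24 h, and its −2.64 ± 1.39 did not pass (0.921). BTG2, an antiproliferative gene, was the only positive member (0.53 ± 0.40, adjusted p = 0.983). In this list 5 of the 16 did not overlap and were lower, against 3.82% of all genes.

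PPP1R15A encodes the subunit GADD34, which directs protein phosphatase to the initiation factor eIF2 and so restores translation after stress. It stood at 477 and 449.8 CPM at 2 h and 105 and 117 CPM at 24 h in monolayers. In spheroids it stood at 599 and 244 CPM at 2 h and 108 and 101 CPM at 24 h. The 4 levels at 24 h lay close together, while at 2 h replicate 2 of the spheroids stood well below the other libraries. PPP1R15A (chr19:48872392-48876057, plus strand) fell 4.10-fold (log2 −2.04 ± 0.24, edgeR adjusted p = 0.0229).

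Genes of the wider ATF4 stress programme gave a median of −0.38, with 13 of 16 negative and none called. In monolayers 12 of the 16 were negative (median −0.23), and in spheroids 10 of the 16 (median −0.52). Replicates differed as much, since in the 2 h monolayers 15 of the 16 were lower in replicate 2. The median difference there was −0.52 in log2(CPM + 1). The amino acid transporter SLC7A5 had −0.74 ± 0.18 with no overlap (edgeR adjusted p = 0.37), and CHAC1 −1.40 ± 0.45 (0.62). DDIT4, an inhibitor of mTORC1 signalling, went the other way (0.98 ± 0.18, adjusted p = 0.161). Genes of the unfolded protein response had a median of −0.14 over 16 genes and none was called. In monolayers 6 of the 16 were negative (median 0.05), and in spheroids all 16 were (median −0.34). Without replicate 1 of the 2 h spheroids the median over both cultures was −0.05.

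Among secreted signals and their enzymes, PTGS2, the inducible cyclooxygenase of prostaglandin synthesis, stood at 177 and 189 CPM at 2 h and 37.3 and 39.6 CPM at 24 h in monolayers. The spheroid libraries had 364 and 161 CPM at 2 h and 87.3 and 73.0 CPM at 24 h. The replicates of monolayers agreed closely at each time, and no 24 h library reached any 2 h library. PTGS2 (chr1:186671791-186680427, minus strand) fell 3.95-fold (log2 −1.98 ± 0.24, edgeR adjusted p = 0.0229).

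EREG encodes epiregulin, a ligand of the EGF receptor family. It stood at 236 and 213 CPM at 2 h and 79.3 and 77.8 CPM at 24 h in monolayers, and at 124 and 61.6 CPM against 22.5 and 23.8 CPM in spheroids. Spheroids had less of it at each time, so 1 spheroid library of 2 h lay below both monolayer libraries of 24 h. EREG (chr4:74365143-74388751, plus strand) fell 3.38-fold (log2 −1.75 ± 0.22, edgeR adjusted p = 0.0229).

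The other EGF family genes did not pass. The ligand amphiregulin (AREG) had −1.01 ± 0.28 with no overlap (edgeR adjusted p = 0.494), HBEGF −1.47 ± 0.59 (0.785) and NRG1 −0.73 ± 0.27 (0.735). The receptor EGFR had −0.38 ± 0.19 (0.908) and ERBB2 0.27 ± 0.20 (0.983). Over the 10 tested members the median was −0.41, with 7 negative, and it was −0.65 without replicate 2 of the 24 h spheroids. LIF, a cytokine of the interleukin 6 family that is in no list, lay just outside the threshold (−1.20 ± 0.17, edgeR adjusted p = 0.0504) and was named after its values were seen. With the replicate block LIF was called (−1.20, edgeR adjusted p = 0.0193).

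TMEM156, which encodes a membrane protein, had the second smallest p. It stood at 92.7 and 80.3 CPM at 2 h and 24.6 and 23.9 CPM at 24 h in monolayers, and at 74.6 and 68.8 CPM against 22.2 and 29.4 CPM in spheroids. The replicates lay close together in all 4 groups, and no 24 h library reached a 2 h library. TMEM156 (chr4:38966744-39032922, minus strand) fell 3.15-fold (log2 −1.66 ± 0.17, edgeR adjusted p = 0.0127).

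No feedback regulator of MAP kinase signalling was called, and 11 of 14 were negative with a median of −0.58. DUSP1, a phosphatase of MAP kinases, stood at 442 and 278 CPM at 2 h and 161 and 36.2 CPM at 24 h in monolayers. Spheroids had levels of 585 and 140.3 CPM at 2 h and 152 and 53.6 CPM at 24 h, so the times overlapped there. Its −1.84 ± 0.57 did not pass (edgeR adjusted p = 0.613), whereas it did with the replicate block (−1.96, adjusted p = 0.00599). Of the 14 members 4 did not overlap and were lower, against 3.82% of all genes. SPRY2 (−1.53 ± 0.32, edgeR adjusted p = 0.264) and DUSP4 (−0.46 ± 0.12, 0.416) were among these 4.

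Of 20 tested targets of YAP and TAZ 18 were negative, with a median of −0.78 and none called. CCN1, a matricellular protein, stood at 635 and 395 CPM at 2 h and 40.7 and 20.1 CPM at 24 h in monolayers. In spheroids it stood at 558 and 92.1 CPM at 2 h and 29.2 and 19.9 CPM at 24 h. All 2 h libraries lay above all 24 h libraries, but the spread at 2 h was wide.

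CCN1 (−3.90 ± 0.54) and the angiomotin family member AMOTL2 (−2.52 ± 0.36) both had an edgeR adjusted p of 0.0504. CCN2, a second matricellular protein, stood at 155 and 40.8 CPM against 5.56 and 3.77 CPM in monolayers and at 221 and 47.1 CPM against 14.2 and 3.75 CPM in spheroids (−4.13 ± 0.67, adjusted p = 0.123). In this list 7 of the 20 did not overlap and were lower, against 3.82% of all genes. With the replicate block 4 of the 20 were called lower (CCN1, CCN2, AMOTL2 and the kinase NUAK2), against 0.187% of all genes in that fit. AXL (0.08) and NT5E (0.45) were the 2 positive members. In the 2 h spheroids 18 of the 20 were lower in replicate 2 than in replicate 1, with a median difference of −0.98 in log2(CPM + 1).

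**Figure D2:**
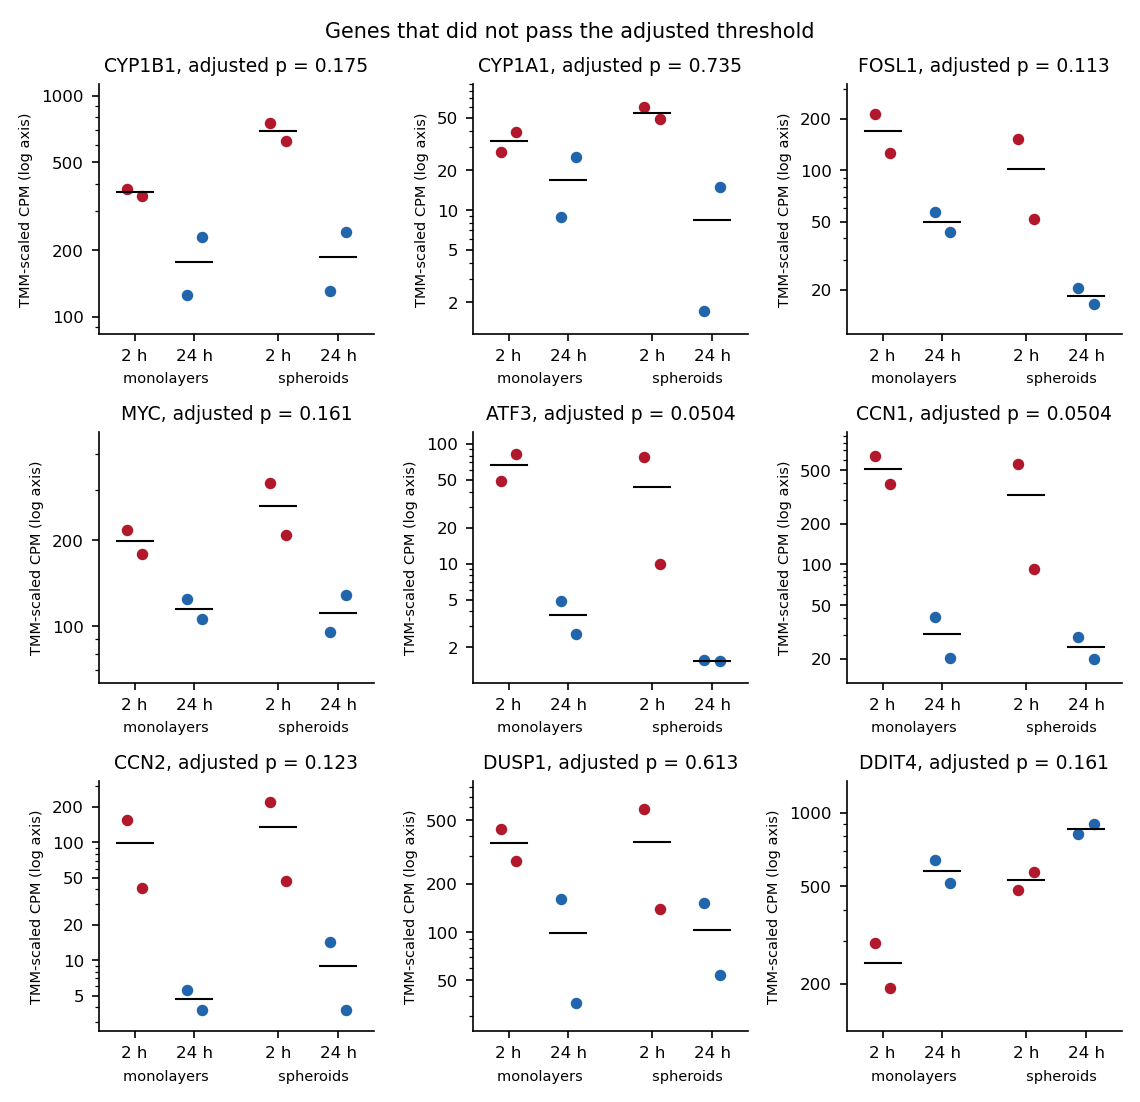
TMM-scaled CPM (log axis) of 9 genes that did not pass, at 2 h (red) and 24 h (blue) in monolayers and spheroids, with 1 point per library and a line at each mean of 2. CCN1 and ATF3 (edgeR adjusted p = 0.0504) lie lower at 24 h in both cultures with a wide spread at 2 h, while DDIT4 (0.161) lies higher at 24 h.

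MYC, a transcription factor that drives growth and ribosome production, stood at 218 and 179 CPM at 2 h and 124 and 106 CPM at 24 h in monolayers. Spheroids had levels of 318 and 208 CPM at 2 h and 95.1 and 128 CPM at 24 h. No 24 h library reached a 2 h library. Its fold change of −1.01 ± 0.19 did not pass, either with culture alone as a block (edgeR adjusted p = 0.161) or with the replicate block (0.0687). A replicate block within each culture gave an edgeR adjusted p of 0.053. MYC was called by DESeq2 (DESeq2 adjusted p = 0.000805) and by edgeR without a filter (edgeR adjusted p = 4.65e-05).

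The network around MYC showed no common direction, with a median of −0.09 over 11 genes. MAX, the partner of MYC, had −0.09 ± 0.15 and the antagonist MXD1 −0.84 ± 0.35 (edgeR adjusted p = 0.826). Ribosome biogenesis genes, many of which MYC is known to activate, were negative in 20 of 24 cases. Their median was −0.24 (−0.15 without replicate 1 of the 24 h spheroids) and none was called. The median was −0.09 in monolayers, with 16 of 24 negative, and −0.31 in spheroids, with 21 of 24 negative. DDX21, WDR43, PNO1, DKC1 and NCL, 5 of the 24, did not overlap and were lower, against 3.82% of all genes. Cytosolic ribosomal protein genes had a median of 0.01 over 62 members, the same as all genes tested.

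NF-kB response genes and chemokines were negative in 14 of 15 cases with a median of −1.13, and none was called. CXCL8, a neutrophil chemokine, stood at 46.8 and 52.2 CPM at 2 h and 5.82 and 7.69 CPM at 24 h in monolayers. The spheroid libraries had 348 and 45.2 CPM at 2 h and 59.0 and 14.96 CPM at 24 h, so the times overlapped. The fold change was −2.63 ± 0.62 (edgeR adjusted p = 0.37). In spheroids all 15 members were lower in replicate 2 than in replicate 1, at 2 h and again at 24 h. Without replicate 1 of the 2 h spheroids the median was −0.65, and without replicate 1 of the 24 h spheroids it was −1.49.

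No gene was called higher at 24 h by the edgeR test with culture as a block. Of the 14402 genes DESeq2 called 19 higher and 90 lower. Among the 19 were DDIT4, HILPDA and TXNIP. DDIT4 stood at 293 and 192 CPM at 2 h and 639 and 515 CPM at 24 h in monolayers. The spheroid libraries had 482 and 574 CPM at 2 h and 821 and 898 CPM at 24 h. The times did not overlap within either culture, but its 0.98 ± 0.18 did not pass (edgeR adjusted p = 0.161). DDIT4 did pass with a replicate block within each culture (0.99, edgeR adjusted p = 0.0177).

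Other genes with small p on that side, picked after their values were seen, included HILPDA (0.91 ± 0.19) and TXNIP (2.44 ± 0.55). HILPDA, a lipid droplet protein, had an edgeR adjusted p of 0.264 and TXNIP, an inhibitor of thioredoxin, 0.285. TXNIP was low, at 0.416 to 2.54 CPM at 2 h and 1.83 to 17.1 CPM at 24 h.

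Genes of G2 and mitosis were positive in 22 of 23 cases with a median of 0.29, against 0.01 over all genes. None was called. The median lay between 0.20 (without replicate 2 of the 24 h monolayers) and 0.33 as single libraries were left out. Replicate 2 exceeded replicate 1 by a median of 0.28 in log2(CPM + 1) in the 24 h monolayers and 0.23 in the 2 h spheroids. In the 24 h spheroids that median difference was −0.20, and in the 2 h monolayers −0.07. KIF20A, a kinesin of cytokinesis, stood at 159 and 143 CPM at 2 h and 178 and 263 CPM at 24 h in monolayers, and at 89.6 and 107 CPM against 158 and 130.1 CPM in spheroids (0.55 ± 0.16, edgeR adjusted p = 0.537). In this list 6 of the 23 did not overlap and were higher at 24 h, against 3.09% of all genes. They were KIF20A, HMMR, AURKA, PLK1, CCNB2 and CCNA2. Genes of G1/S and DNA replication differed in sign between the cultures, with none called. Their median was −0.18 in monolayers, with 19 of 23 negative, and 0.34 in spheroids, with 5 of 23 negative. The difference between the cultures was not tested for the list. Targets of p53 had a median of 0.03 over 18 genes, between −0.06 and 0.22 as single libraries were left out.

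**Figure D3:**
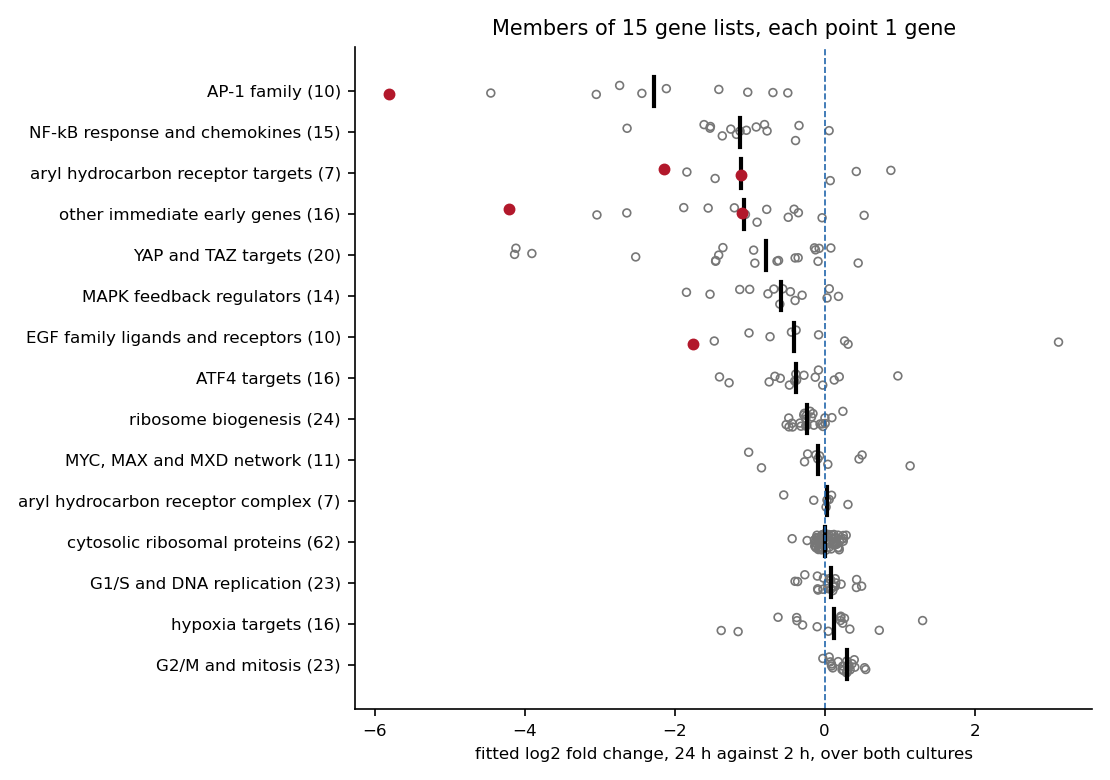
Fitted log2 fold change at 24 h against 2 h of every tested member of 15 gene lists (number tested in brackets). Red points were called, open points were not, thick bars are list medians, from −2.27 for AP-1 genes to 0.29 for G2 and mitosis, and the dashed line is the median of all genes (0.01).

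Several other lists had no called member. Heat shock genes had a median of 0.06 over 16 genes, the respiratory chain 0.02 over 32, membrane repair 0.01 over 17 and TGF-beta targets 0.08 over 15. Glycolysis enzymes had a median of 0.13 over 16 genes, between 0.07 and 0.21 as single libraries were left out. Interferon-stimulated genes had 0.22 over 15 genes, from −0.07 without replicate 1 of the 24 h spheroids to 0.52 without replicate 2 of the 2 h monolayers. Cytoskeletal targets of SRF and MRTF were negative in 13 of 15 cases, with a median of −0.10. That median was −0.30 without replicate 2 of the 2 h spheroids and 0.0004 without replicate 1 of the same group. In monolayers 14 of the 15 were negative (median −0.20), and in spheroids 7 of the 15 (median 0.01). Cholesterol synthesis was negative in 17 of 20 cases, with a median of −0.18 that was 0.01 without replicate 1 of the 24 h spheroids and −0.34 without replicate 2. In monolayers 12 of the 20 were negative (median −0.04). Within it HMGCS1, an enzyme of the pathway, was lower at 24 h with no overlap but did not pass (−0.86 ± 0.30, edgeR adjusted p = 0.691). Extracellular matrix genes had a median of −0.15 over 16 genes, from −0.47 without replicate 1 of the 24 h spheroids to 0.15 without replicate 1 of the 2 h spheroids. Fibrinogen and acute-phase genes had −0.24 over 9, from −0.63 without replicate 2 of the 24 h monolayers to 0.05 without replicate 2 of the 2 h monolayers. Hypoxia targets had a median of 0.13 over 16 genes, which went from −0.37 without replicate 1 of the 24 h spheroids to 0.32 without replicate 2.

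Within the cultures, monolayers gave no called gene (0%, edgeR, 497 genes at an unadjusted p under 0.05, and 36 called by DESeq2). TIPARP was nearest, with −1.97 ± 0.20 (adjusted p = 0.0668, and 0.0217 with the replicate block). By rank of p it was followed by TMEM156 (−1.84 ± 0.24), TM4SF1 (−1.26 ± 0.18), PTGS2 (−2.25 ± 0.35) and TMEM37 (1.37 ± 0.22). TMEM37 stood at 11.2 and 11.3 CPM at 2 h and 30.4 and 27.9 CPM at 24 h in monolayers. In spheroids TMEM37 stood at 95.8 and 78.0 CPM against 104 and 95.1 CPM, with overlap.

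Spheroids gave 1 called gene, TIPARP (−2.30 ± 0.20, edgeR adjusted p = 0.0215, 0.00694% of genes, with 576 genes at an unadjusted p under 0.05). In spheroids this call remained in 1 of the 8 fits that each left out a library, the one without replicate 2 of the 2 h spheroids, and the largest adjusted p was 0.337. The next by p were RAD54L (2.32 ± 0.34), EREG, NR4A1 (−4.58 ± 0.71) and the cyclin CCND1 (−1.15 ± 0.19), none of which passed (adjusted p = 0.462). RAD54L, a helicase of homologous recombination, stood at 2.26 and 1.84 CPM at 2 h and 11.1 and 9.50 CPM at 24 h in spheroids. In monolayers it stood at 20.7 and 19.9 CPM against 17.9 and 19.3 CPM.

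The difference between the cultures was tested as an interaction. No gene was called (0%, edgeR, 295 genes at an unadjusted p under 0.05, and 4 called by DESeq2). For TIPARP the log2 fold change in spheroids minus that in monolayers was −0.32 ± 0.27 (edgeR adjusted p = 1). The genes with the smallest p were ADRA1B, RAD54L, TRABD2A, FTH1 and ZGRF1, each with an adjusted p of 1. FTH1, the ferritin heavy chain, stood at 273 and 254 CPM against 467 and 447 CPM in monolayers. The spheroid libraries had 517 and 488 CPM against 430 and 415 CPM, which is the opposite direction (interaction −1.04 ± 0.23).

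**Figure D4:**
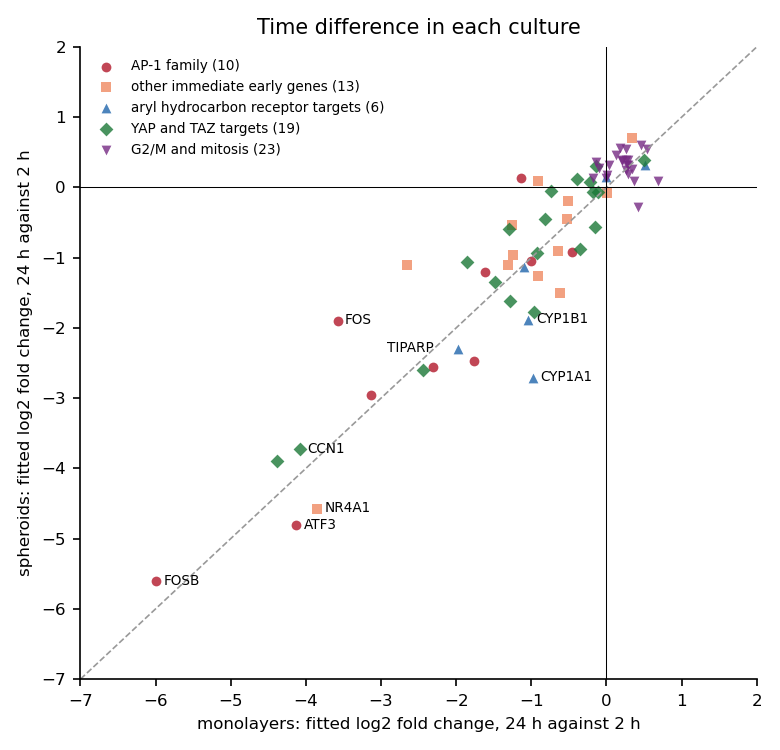
Fitted log2 fold change at 24 h against 2 h in monolayers (horizontal) and spheroids (vertical) for members of 5 lists with a mean of at least 5 CPM at either time; each point is 1 gene and the dashed line marks equal change. FOSB (−6.00 and −5.61) and NR4A1 (−3.85 and −4.58) lie at the lower left.

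The libraries taken right after NEE, scaled together with the 8, give the level soon after the procedure. They were not compared by a test with either time. In monolayers the 2 h level exceeded both right-after libraries for all 9 genes that fell, and in spheroids for 8, PTGS2 being the exception. These 9 genes were called for a fall from 2 h to 24 h, which partly sets this count and the 24 h counts below. The matching shares over all genes were not computed, so the counts have no background. TIPARP stood at 104 and 119 CPM right after NEE in monolayers and at 69.4 and 61.4 CPM in spheroids. At 24 h it was below these values in monolayers and above them in spheroids. Over the 9 genes, the 24 h level in monolayers lay below both right-after libraries for 7 and overlapped them for 2. In spheroids it overlapped for 6, lay above for TIPARP and FOSB, and below for NR4A1. FOSB in spheroids was at 0.215 and 0 CPM right after NEE and at 0.814 and 0.293 CPM at 24 h, close to the floor of 3 counts, so that order is uncertain.

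How many genes were called varied with the library left out, while the fold changes varied less. FOSB lay between −6.18 and −5.06 and KLF6 between −1.20 and −1.02 over the 8 fits that each left out a library. TIPARP alone was called after leaving out either library of any group other than the 2 h spheroids, except that TMEM156 also remained without replicate 2 of the 24 h spheroids. Without replicate 1 of the 2 h spheroids 7 genes were called, 6 of them among the 9. Without replicate 2 of the 2 h spheroids 26 were called, all lower and including the 9. The direction of each of the 9 stayed the same in all of these fits. With the 4 libraries taken right after NEE added to the fit and 1 mean per group, 6 genes were called, 5 of them among the 9. There PTGS2 and KLF6 (edgeR adjusted p = 0.128) and EREG and NFE2L2 (0.0584) did not pass, with fold changes of −1.98, −1.10, −1.76 and −1.11.

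**Figure D5:**
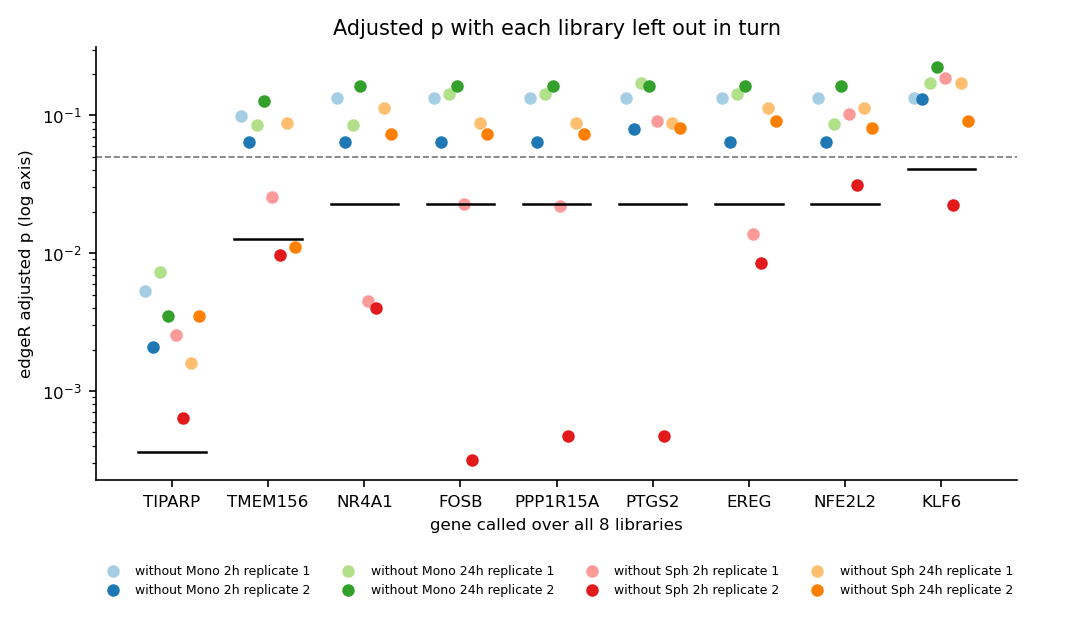
EdgeR adjusted p (log axis) of the 9 called genes when each library is left out in turn (colours); black bars give the value over all 8 libraries and the dashed line is 0.05. TIPARP stays at 0.00729 or less, while each other gene passes in 1 to 3 of the 8 cases.

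Libraries with the same replicate number deviated together, so the number was also fitted as a block. That gave 28 called genes, 27 lower and 1 higher, which included all 9. Besides those named above they included the EGR corepressor NAB2 (−2.77, edgeR adjusted p = 0.00335), the death receptor TNFRSF10B (−0.91, 0.0237) and PDP1 (−1.53, 0.00757). With a separate block for each replicate of each culture 54 were called, 51 lower (0.354% of all genes) and 3 higher (0.0208%). Among these were 5 of the 15 NF-kB response genes and chemokines, CXCL8, CXCL1, TNFAIP3, CCL2 and IRAK2.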

How the data were processed

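Total RNA of A549 lysates was made into full-length (Smart-Seq2) libraries and sequenced paired-end, per the labels' protocols. The deposited values are raw read counts per gene. The submitters' processing notes name FastQC, Trimmomatic, HISAT2, featureCounts and GRCh38; versions, annotation release, strand setting and treatment of multi-mapping reads are stated nowhere in the labels or files used, so counts of overlapping, antisense and near-identical genes are uncertain. From the counts, genes with at least 1 CPM in at least 2 of the 8 libraries were kept (14402) and tested with edgeR 4.0.16 in R 4.3.3 (TMM scaling, robust quasi-likelihood F test, culture as a block, 5 residual degrees of freedom). The single cultures and the interaction came from a model with 1 mean per group (4 residual degrees of freedom). P-values were adjusted over all genes tested by the Benjamini-Hochberg method at 0.05. Standard errors were derived from the fold change and F. Printed CPM values are TMM-scaled, except those of genes not tested. The procedure was tested on simulated data.

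The named genes were 4 markers (TIPARP, CYP1B1, FOSL1, MYC), up to 10 called protein-coding genes of each sign by fold change with a mean of at least 5 CPM and no overlap, up to 4 called members of each list, and the 5 of smallest p in each culture and in the interaction. Uncalled list members are given as examples; ATF3, CCN1, CCN2, DDIT4 and the other uncalled genes of small p were picked after their values were seen. The members and lists were chosen with earlier results of these data known. In the main test p-values measure the spread between libraries left after culture and time. That spread also holds any difference between the cultures in the change over time. In the model with 1 mean per group they measure the spread between the libraries of a group, which the labels call biological replicates. No 2 libraries of a group agreed within sampling noise (chi-square per gene 55.8 to 103). Libraries with the same replicate number deviated together (correlations of 0.201 to 0.473 over 6 pairs of groups and 10047 genes), and the labels give the number as a batch, so the replicate block is printed where it changes a call. Coordinates are from GENCODE on GRCh38 and promoter windows from RefSeq on GRCh38.p14. Alternatives were other scalings and filters, DESeq2 1.42.0, the replicate blocks, thinning to 16031034 counts, the libraries right after NEE added, and each library left out. Some results are not reported here.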

Additional observations from a re-analysis of the deposited data

How the results depend on the processing

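The 27 gene results kept their direction under every alternative run. The number of genes called over both cultures (9) was 14 with RLE scaling, 190 without a filter, 109 with DESeq2, 5 without the culture block, 2 with 1 mean per group, 6 with the libraries right after NEE added and 1 to 26 with single libraries left out. In monolayers (0 called) it was 71 without a filter, 1 with a filter of 5 CPM, 36 with DESeq2, 1 with the libraries right after NEE added and 0 to 7 with single libraries left out. In spheroids (1 called) it was 49 without a filter, 42 with DESeq2 and 0 to 8 with single libraries left out. The interaction (0 called) gave 6 without a filter and 4 with DESeq2. The cause of these differences was not tested.

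With the replicate block 28 genes were called over both cultures, 3 in monolayers and 2 in spheroids, and with a replicate block within each culture 54 over both. Of 32 list medians 19 changed sign under some alternative and 9 moved by at least 1 SD. The median of all genes moved from 0.01 to 0.05 (log2) at most with another scaling. Genes under 0.136 to 0.187 CPM, the worth of 3 counts, cannot be told from 0 at this depth.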
